A study of Mus musculus with 4 samples.

Results

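Transcripts of 10 ligand genes by which a tumour cell is seen by T cells, natural killer (NK) cells and macrophages were followed on arrays of B16-F10, a mouse melanoma line. The genes, Cd274, Pdcd1lg2, Cd276, Cd47, Pvr, Nectin2, Nectin3, Ulbp1, Lgals9 and Tnfrsf14, were chosen by name, with their signals on these arrays already known from earlier work on the same data. Their members on the array were the 15 non-control probes that carry a RefSeq accession of these genes, and the 10 genes stand among 23458 with a named probe. Because the choice followed the values, the levels and differences below are a description of these genes.

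Gene expression was measured after 24 h with recombinant Cdh1 protein at 100 ng/mL or without it, in medium with 10% fetal bovine serum. Cdh1 is the mouse symbol for E-cadherin, through which epithelial cells adhere to each other. There were 4 one-colour arrays, 1 for each culture: control and Cdh1 in culture set 1, and control and Cdh1 in culture set 2. The labels name no animal or genotype beyond the cell line, which all 4 cultures share.

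These ligands act on receptors of immune cells. The products of Cd274 (PD-L1) and Pdcd1lg2 (PD-L2) bind PD-1 and restrain T cells, and Cd47 binds SIRP-alpha and restrains engulfment by macrophages. Pvr, Nectin2 and Nectin3 belong to the nectin family of cell adhesion proteins. Members of this family are read by TIGIT, CD96 and the activating receptor DNAM-1 on T and NK cells, but not each member by each receptor. Ulbp1, called MULT1 in the mouse, binds the activating receptor NKG2D of NK cells and is held to mark stressed or transformed cells.

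The question of the study was which transcripts differ with Cdh1. Signals are log2 of the processed intensity relative to the 75th percentile of the same array, so 0 is that percentile. Each array has 59305 spots that are not controls. The scanner software called 59.29% to 61.33% of them well above background and 0 saturated, and the 75th percentile lay between 568.71 and 623.22 units of processed intensity. All 7 melanocyte markers were well above background on all 4 arrays. Of 9 leukocyte markers 3 were (Cd3e, Itgam and Csf1r), whereas Ptprc, Cd79a, Adgre1, Ncr1 and Klrb1c were not well above background on any array. Of the 15 probes of the ligand genes, 13 were well above background on all 4 arrays. These 13 cover 9 of the 10 genes, every one except Pdcd1lg2. Levels of different probes depend on the probe and are not set against each other.

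**Figure D1:**
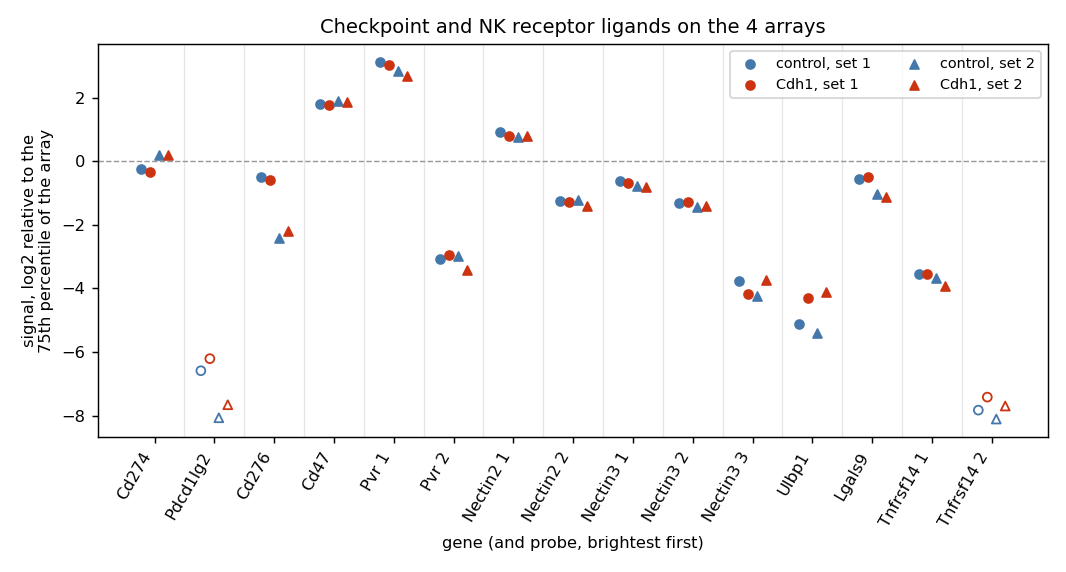
Signal (log2 relative to the 75th percentile of the array, dashed line) of each of the 15 probes on the 4 arrays; colour gives the treatment, shape the culture set, and open symbols mark probes not well above background on any array. The red symbols of Ulbp1 lie above the blue ones in both sets, while Cd274, Cd276 and Lgals9 differ more between the sets than between the treatments.

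In the comparison of Cdh1 with control, one ligand gene stood apart. The Ulbp1 probe (NM_029975, row 278) gave a processed intensity of 16.2 in control and 29.4 in Cdh1 cells of set 1, and of 14.9 in control and 35.4 in Cdh1 cells of set 2. In each set the Cdh1 array was thus higher than its control. On the log2 scale the level was -5.26 ± 0.18 in control and -4.21 ± 0.12 with Cdh1 (SD, n = 2). Within the sets it differed by 0.84 (set 1) and 1.26 (set 2), with a mean of 1.05 (SE 0.15, 95% interval 0.64 to 1.46), or 2.07-fold. In whole cultures, more cells that express a gene and more RNA per cell cannot be told apart. In the limma fit over all probes the unadjusted p was 0.00215 and the Benjamini-Hochberg adjusted p was 1, so Ulbp1 did not pass the threshold of 0.05.

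No probe passed it. Of 32571 probes tested, 0 were called between Cdh1 and control by limma (0%), and 561 had an unadjusted p under 0.05. Of the 13 probes of the ligand genes tested, 0 were called, and 1, that of Ulbp1, had an unadjusted p under 0.05. With 2 arrays against 2, an exact two-sided permutation test could not give a p below 0.333. The labels call the sets independent. As the fit has no block, its SEs, intervals and p-values take in the difference between the sets. They do not measure the spread of the differences within sets. With the set as a replicate block, 2335 probes had an unadjusted p under 0.05 and 0 were called (limma).

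The size of the Ulbp1 difference was set beside the other probes. On all 4 arrays 31155 probes exceeded background clearly, and 29 of them (0.0931%) were at least 1.5-fold higher with Cdh1 in both sets, 9 of the 29 in the last 24 rows of the array. Ulbp1, outside those rows, was the 1 ligand probe among them. Its mean difference ranked 23 from the highest. The probe is dim, and dim probes vary more. Among the 3513 probes within 0.5 of its mean log2 signal, the SD of the difference between Cdh1 and control was 0.372 in set 1 and 0.37 in set 2, and 17 of them (0.484%) were 1.5-fold higher in both sets.

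Error within an array could be read from 300 probes printed 10 times each. Between 3 and 5 of them per array lay within 0.5 of the Ulbp1 level, and the median SD over their spots was between 0.204 and 0.284 on the log2 scale. Ulbp1 itself was a single spot. The median of its pixels was 50 and 59 units in control and Cdh1 of set 1 and 50 and 66 in those of set 2, over a local background between 26 and 30 units. Only 5.34% and 5.59% of the probes well above background were as dim or dimmer on the control arrays. The 67 probes within 5 rows and 5 columns of it had a median difference of -0.0278 in set 1 and 0.0289 in set 2 (the SD of the difference was 0.386 and 0.336 in the last 24 rows and 0.194 and 0.193 in the other rows, in set 1 and set 2). With normexp background correction and quantile normalization, which adds 50 units to every spot, the difference was 0.19 with an unadjusted p of 0.0585 (limma, adjusted p 1).

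**Figure D2:**
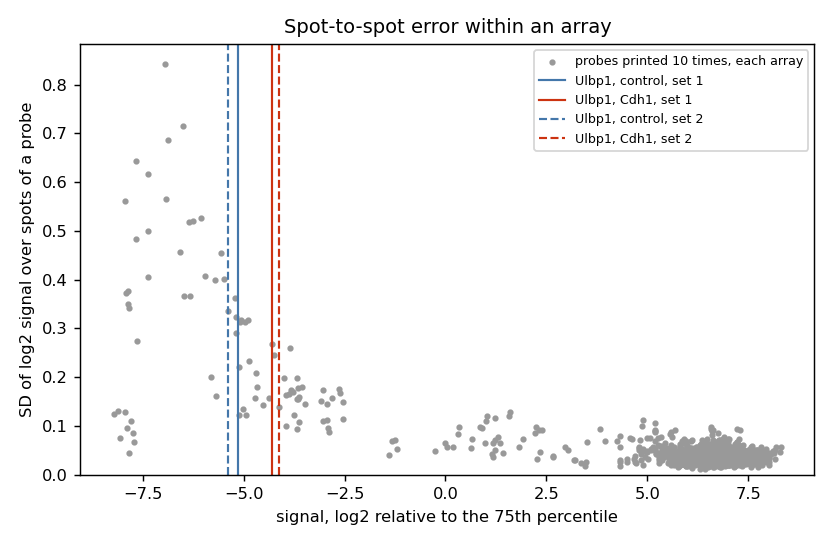
SD of the log2 signal over the spots of each probe printed 10 times, on each of the 4 arrays, against the level of that probe; vertical lines mark the Ulbp1 level on each array. Spot error is larger at the Ulbp1 levels than for bright probes, and the median SD of probes near Ulbp1 is 0.284 and 0.221 on the control arrays and 0.209 and 0.204 on the Cdh1 arrays; the dimmest probes scatter widely in SD.

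The other 12 probes did not show such a difference. Of the 13 probes, 9 stayed within 0.25 of 0 in both sets, which also held for 77.2% of the 31155 probes. The sign was the same in both sets for 7 of the 13, against 52.5% of all probes. None of the other 12 had an unadjusted p under 0.05, and the narrowest of the intervals given below, that of Cd47, reaches from -0.34 to 0.27.

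**Figure D3:**
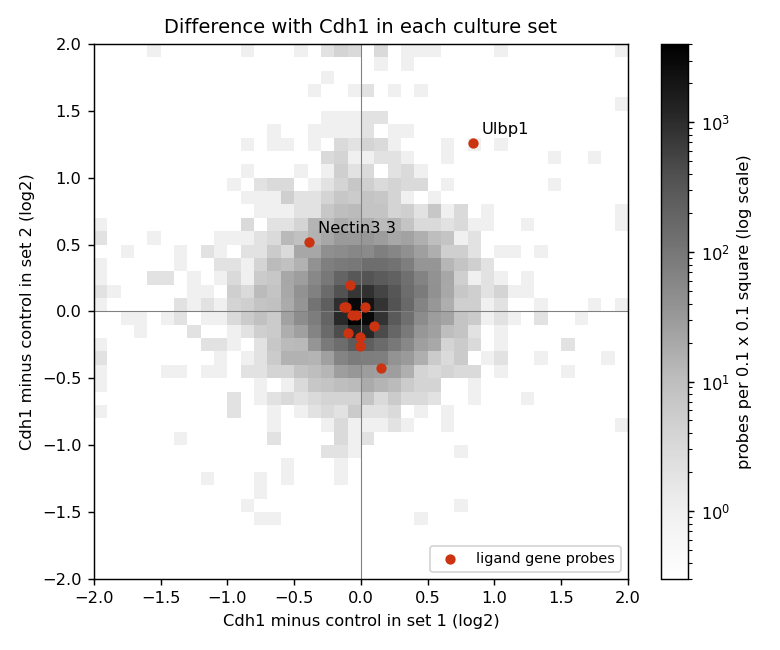
Difference between Cdh1 and control (log2) in set 1 against set 2, with the density of the 31155 probes in grey (values beyond the axes are drawn in the outermost squares) and the 13 probes of the ligand genes in red. Ulbp1 lies at 0.84 and 1.26, and the third probe of Nectin3 at -0.39 and 0.52.

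Among the ligands of PD-1, Cd274 was measured and Pdcd1lg2 was not. The Cd274 probe (NM_021893, row 291) had a processed intensity of 485.2 in control and 456.2 in Cdh1 cells of set 1, and of 708.7 and 714.3 in set 2. Its difference with Cdh1 was -0.11 and 0.03, with a mean of -0.04 (SE 0.26, 95% interval -0.78 to 0.70). The Pdcd1lg2 probe (NM_021396, row 10) gave 5.9 and 7.81 units in set 1 and 2.32 and 3.04 in set 2, and was not well above background on any array, so no fold is given. Cd276 (NM_133983, row 368) encodes B7-H3, a B7 family protein. Its intensity was 403.9 in control and 386.2 with Cdh1 in set 1, and 118.1 and 134.3 in set 2, a difference with Cdh1 of -0.08 and 0.20. The mean was 0.06 (SE 0.90, 95% interval -2.44 to 2.56).

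Cd47 was even across all cultures. Its probe (NM_010581, row 126) gave 1990.4, 1967.0, 2313.3 and 2240.9 units in control and Cdh1 of set 1 and control and Cdh1 of set 2. The difference with Cdh1 was -0.04 in set 1 and -0.03 in set 2, with a mean of -0.03 (SE 0.11, 95% interval -0.34 to 0.27).

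The nectin family ligands were read by 7 probes, and probes of a gene did not always behave alike. The brighter Pvr probe (NM_027514, row 137) gave 4989.4 and 4708.9 units in control and Cdh1 of set 1 and 4473.7 and 3957.7 in those of set 2, a difference of -0.10 and -0.16. The mean was -0.13 (SE 0.19, 95% interval -0.66 to 0.40). Both Cdh1 arrays were lower than the control of their own set, but the control of set 2 was lower than the Cdh1 array of set 1. The dimmer probe of the same accession (row 175), between 58.1 and 78.8 units, gave 0.15 and -0.42, so the Pvr probes disagree in set 1.

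For Nectin2, each probe carries the accession of another transcript. The probe of NM_008990 (row 332) lay between 999.9 and 1076.9 units, with a difference of -0.13 and 0.03. That of NM_001159724 (row 15) lay between 231.0 and 267.1 units, with -0.01 and -0.19. Nectin3 had 3 probes of the same accession, NM_021496. Those in rows 218 and 318 had differences between -0.07 and 0.03 in either set, whereas the dimmest, in row 43, gave -0.39 in set 1 and 0.52 in set 2 at intensities between 32.2 and 46.5 units. The directions of this dim probe oppose each other, and its mean was 0.07 (SE 0.25).

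Lgals9 encodes galectin-9, a sugar-binding protein and ligand of TIM-3, and Tnfrsf14 encodes HVEM, which binds BTLA and CD160. The Lgals9 probe (NM_010708, row 17) gave 382.4 in control and 413.8 units with Cdh1 in set 1, and 308.0 and 281.8 in set 2, a difference of 0.10 and -0.11. The brighter Tnfrsf14 probe (NM_178931, row 122) gave 48.7 and 49.0 units in set 1 and 49.1 and 40.5 in set 2, a difference of -0.01 and -0.26. A further Tnfrsf14 probe (row 177), at 2.25 to 3.36 units, was not well above background on any array.

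Far more probes were called between the culture sets than between the treatments, and some ligand genes were among them. These calls depend on the settings: 0 probes were called between the sets without the filter on dim probes, without control of set 1 or without Cdh1 of set 1, while 9530, 8170 and 9765 had an unadjusted p under 0.05 (limma). In a limma fit of set 2 against set 1 over all probes, 3 of 13 ligand probes were called at an adjusted p under 0.05. The replicates in this fit were the control and the Cdh1 culture of the same set. Its SEs and p-values measure the spread within a set, and not the spread between repeats of a set. Over all 32958 probes tested, 15.5% were called, 6.83% higher and 8.64% lower in set 2. Of the ligand probes, 1 was called higher (Cd274) and 2 lower (Cd276 and Lgals9) in set 2. Over the genes well above background on all arrays, taking the brightest probe of each, the median difference was -0.137 for the 9 ligand genes and -0.0274 for 13994 genes.

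Cd274 was higher in set 2. Its level was -0.23 and -0.34 in control and Cdh1 of set 1 and 0.19 and 0.21 in those of set 2. Set 2 exceeded set 1 by 0.41 in control and by 0.55 in Cdh1 cells, with a mean of 0.48 (SE 0.07), or 1.40-fold, and a limma adjusted p of 0.0272. Lgals9 was lower in set 2, at -0.57 and -0.48 in set 1 and -1.02 and -1.13 in set 2. The mean difference was -0.55 (SE 0.07), 1.46-fold lower, with a limma adjusted p of 0.027. With the treatment as a block the limma adjusted p was 0.0633 for Cd274 and 0.0656 for Lgals9, and neither was called without any 1 of the 4 arrays, where the adjusted p of Cd274 ranged from 0.0953 to 0.125 and that of Lgals9 from 0.0935 to 0.116. Their differences stayed between 0.43 and 0.54 and between -0.60 and -0.49 in those fits. The SD of the difference between the sets over all probes outside the last 24 rows was 0.369.

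Cd276 had the widest difference between the sets of the 13 probes. Its level was -0.49 and -0.58 in set 1 and -2.40 and -2.20 in set 2, a mean difference of -1.76 (SE 0.09), 3.40-fold lower in set 2, with a limma adjusted p of 0.00771. With the treatment as a block the limma adjusted p was 0.0364. It was 0.0743 without the filter on dim probes, 0.0662 without control of set 1 and 0.0568 without Cdh1 of set 1. The single probe lies in row 368, within the last 24 rows. The 62 probes within 5 rows and 5 columns of it had median differences of -0.0386 (control arrays) and -0.117 (Cdh1 arrays), and their mean differences ranged from -0.766 to 0.467. In the last 24 rows 2.92% of probes differed at least 2-fold between the sets, against 2.34% in the other rows. The SD of the difference between the sets was 0.396 in the last 24 rows and 0.369 in the other rows. The SD of the difference between Cdh1 and control was wider in the last 24 rows, at 0.386 (set 1) and 0.336 (set 2). It was 0.194 and 0.193 in the other rows. Whether the place of the spot has a part in the Cd276 difference was not tested.

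Of the remaining ligand probes, the brighter one of Pvr came nearest to the threshold, at a difference of -0.32 (SE 0.09, limma adjusted p 0.0856). It was called with normexp and quantile normalization, at -0.25 and 0.0294. The probes of Nectin2, the brighter 2 of Nectin3 and that of Cd47 differed between the sets by -0.14 to 0.09, with limma adjusted p-values from 0.158 to 0.675. For Ulbp1 the difference between the sets was -0.04, being -0.25 in control and 0.17 in Cdh1 cells.

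**Figure D4:**
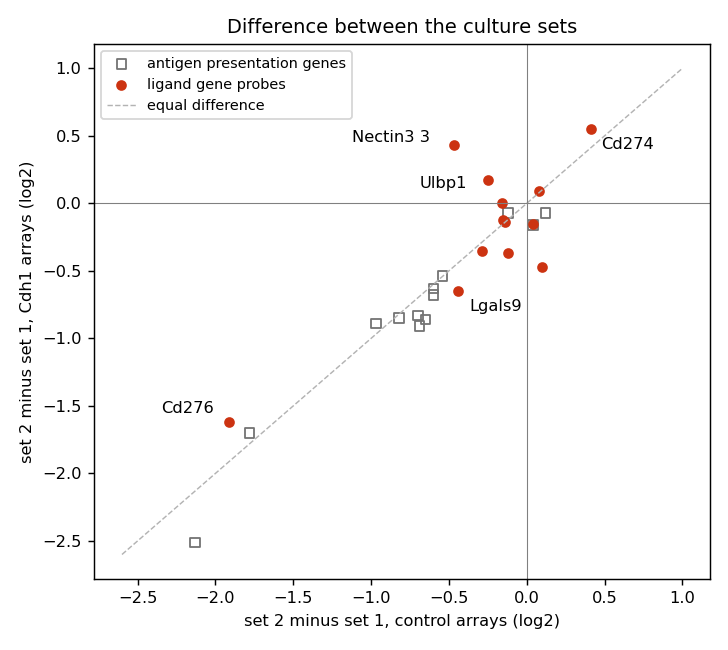
Difference between set 2 and set 1 (log2) in the control arrays against the Cdh1 arrays for the 13 probes of the ligand genes (red) and for antigen presentation genes (open squares, brightest probe of each); the dashed line marks equal differences. Cd274 lies at 0.41 and 0.55, while Lgals9 and Cd276 lie on the side of most antigen presentation genes.

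Genes around these ligands were described from lists written with earlier results of these data known. Among the genes for antigen presentation, which load peptides onto MHC class I, 10 of 13 tested were called lower in set 2 and 0 higher, with a median difference of -0.753. With the treatment as a block 9 were called lower. Over all genes, by the brightest probe of each, 1676 of 14639 tested were called lower and 1104 higher, and 754 and 413 with the block. Tap2 and Tap1, which form the peptide transporter, differed by -1.74 and -0.93, and B2m, the light chain of MHC class I, by -0.61. Nlrc5, which is also in the list of regulators, differed by -2.32. Of the called ligand genes, Lgals9 and Cd276 were lower in set 2 and Cd274 was higher. Between Cdh1 and control, 0 of the 13 were called, with a median of -0.0246. The widest differences were those of Nlrc5 (0.25), Erap1 (-0.18) and Tap2 (0.14).

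Of 32 regulators of these ligands, 3 were called higher and 8 lower in set 2, beside 1104 and 1676 of all 14639 genes tested, so the higher count is near the share over all genes. Among those called lower were Nlrc5 (-2.32), the transactivator of MHC class I genes, and Irf9 (-1.48), Stat2 (-0.64) and Stat3 (-0.56), which carry interferon and cytokine signals. The 3 called higher were Myc (1.17), Nfkbia (0.44) and Irf1 (0.33), a transcription factor induced by interferon. With the treatment as a block 1 was called higher and 5 lower, beside 413 and 754 of all 14639 genes. Irf1 and Nfkbia then had limma adjusted p-values of 0.0773 and 0.0587. With Cdh1, 0 of the 32 were called, and Nlrc5 (0.25) and Nfkb1 (0.13) were among the widest differences.

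Further checkpoint and NK receptor ligands were in part not well above background. Of 26 such genes on the array, 13 were well above background on all arrays and 10 on none, among them Cd86, Icosl, Vtcn1, Vsir and Nectin1. In set 2, Clec2d, which encodes a ligand of an NK cell receptor, was called higher (1.39), as was the galectin Lgals3 (0.49, limma adjusted p 0.052 with the treatment as a block), and H2-T23, whose product Qa-1 is read by NKG2A, was called lower (-0.69). No member of this list was called with Cdh1 (limma, 0 of 14 tested), and among the 13 on all arrays the widest differences were Ceacam1 at 0.25, Cd80 at 0.18 and H60c at 0.14. As further ligands of NKG2D, Raet1e had a difference of 0.01 and H60c of 0.14 with Cdh1. H60b was well above background on 3 arrays and differed by 0.04 in set 1. On the control array of set 2 its level was -6.15, below the lowest level called well above background there (-6.04). No difference is therefore given for H60b in set 2, nor a mean. It entered the test through the Cdh1 arrays and was not called (limma). H60b was singled out after its values were seen.

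Of 19 receptor genes for these ligands, 10 were not well above background on any array, among them Tigit, Cd226, Klrk1, Ctla4 and Lag3. The 6 that exceeded it on all arrays were Sirpa, Havcr2, Cd28, Cd244a, Cd44 and Rgmb. Of these 6, 0 were called in either comparison (limma). The widest differences with Cdh1 were 0.38 for Cd28, 0.16 for Havcr2 and 0.14 for Cd244a, and between the sets -0.17 for Cd28, -0.14 for Cd44 and 0.12 for Cd244a.

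Some markers of cell types also differed between the sets. The summed signal of the 7 melanocyte markers, as multiples of the 75th percentile, was 1548.863 and 1516.222 on the arrays of set 1. On those of set 2 it was 1321.96 and 1318.435. The brightest probes, those of Dct, Mlana, Pmel and Tyrp1, make up most of this sum, and of these only Pmel was called. In all, 3 of 7 were called lower in set 2, Tyr (-1.77), Pmel (-0.42) and Mitf (-0.39), while Sox10 was at 0.20 and not called. Beside them, 1676 of all 14639 genes tested were called lower in set 2. With the treatment as a block 1 of the 7 was called, beside 754 of all 14639 genes called lower. Pmel and Mitf then had limma adjusted p-values of 0.0621 and 0.0786. Of the 5 fibroblast markers, Col1a1 and Pdgfra were called lower in set 2, with a summed signal of 0.141 and 0.142 in set 1 and 0.093 and 0.087 in set 2, and Dcn, Lum and Thy1 were not well above background. Pdgfra was not called with the treatment as a block (limma adjusted p 0.0758). The 9 leukocyte markers summed to 10.48 to 12.286, most of it the signal of Itgam (log2 levels of 3.22 to 3.44). Only 3 of the 9 were tested, and 0 were called. None of the endothelial (Pecam1) and keratinocyte (Krt5 and Krt14) markers tested was called, with median differences of -0.0633 and -0.00628. With Cdh1, 0 markers of any list were called (limma), and the widest difference was that of Pecam1 (0.34). The part of these markers in the differences of the ligand genes was not tested.

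Promoters of the ligand genes that moved with the sets were then read for interferon motifs. RefSeq promoter windows (GRCm38.p6, 300 bases) were at hand for 9 of the 10 genes, all but Pvr. The core of the interferon-stimulated response element (ISRE), GAAANNGAAA on either strand, was found in 2 of the 9, Lgals9 and Tnfrsf14, and in 3.44% of all 32851 windows. The core of the gamma-activated site (GAS), TTCNNNGAA, was found in 0 of the 9 and in 8.30% of all windows. Both percentages count windows, of which a gene may have several, whereas the ligands were counted as genes. Of 12 antigen presentation genes with a window, 2 held the ISRE core. So did 3 of 17 further checkpoint and NK receptor ligands, 3 of 24 regulators and 0 of 13 receptor genes with a window. Shown are the 250 bases before the start of the called gene with a match (Lgals9), of the other gene with a match (Tnfrsf14) and of the called genes without one (Cd274 and Cd276), 5′ to 3′ on the gene's strand, with the ISRE core in capitals. Both matches shown lie on the opposite strand, so the capitals spell the reverse complement of the core.
Lgals9: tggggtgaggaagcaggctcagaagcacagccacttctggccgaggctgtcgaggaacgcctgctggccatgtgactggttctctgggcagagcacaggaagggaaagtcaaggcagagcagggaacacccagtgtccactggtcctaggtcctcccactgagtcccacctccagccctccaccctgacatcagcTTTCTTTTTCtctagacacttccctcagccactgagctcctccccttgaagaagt
Tnfrsf14: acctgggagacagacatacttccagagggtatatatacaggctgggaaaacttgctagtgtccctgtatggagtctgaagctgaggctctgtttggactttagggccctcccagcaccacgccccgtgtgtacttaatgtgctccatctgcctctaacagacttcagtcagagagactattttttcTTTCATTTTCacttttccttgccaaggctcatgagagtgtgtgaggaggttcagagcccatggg
Cd274: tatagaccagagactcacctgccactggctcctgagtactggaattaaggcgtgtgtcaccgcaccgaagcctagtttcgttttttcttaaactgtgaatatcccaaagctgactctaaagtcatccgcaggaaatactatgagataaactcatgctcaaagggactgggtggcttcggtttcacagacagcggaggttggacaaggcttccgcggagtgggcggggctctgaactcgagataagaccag
Cd276: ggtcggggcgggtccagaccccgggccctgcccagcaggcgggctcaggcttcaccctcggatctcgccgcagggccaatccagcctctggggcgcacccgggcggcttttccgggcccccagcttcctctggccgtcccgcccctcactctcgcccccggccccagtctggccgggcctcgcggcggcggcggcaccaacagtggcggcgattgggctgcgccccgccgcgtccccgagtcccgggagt
In Lgals9, whose bases shown are chr11:78984925-78985174 on the minus strand, the match lies from base -55 to -46 and another from base 16 to 25 after the start, which is not shown. In Tnfrsf14, chr4:154928078-154928327 on the minus strand, it lies from base -64 to -55. Cd274, chr19:29367188-29367437 on the plus strand, has no match to either motif, and neither has Cd276, chr9:58555034-58555283 on the minus strand. The difference between the sets was -0.55 for Lgals9, -0.25 (limma adjusted p 0.193) for Tnfrsf14, 0.48 for Cd274 and -1.76 for Cd276. Whether the motif has a part in these differences was not tested. A match is a run of letters, and no binding was measured.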

How the data were processed

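The authors read the 1-colour arrays with Agilent Feature Extraction 12.0.3.1, per the file headers and the submitters' processing notes. The deposited intensity of a spot is background-subtracted and detrended within its array, per the file headers, and is not normalized between arrays. The authors' deposited table holds the same intensities multiplied by 1 factor per array (0.8735 to 0.9304).

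Here, processed intensities were divided by the 75th percentile of their array, and log2 of the quotient was averaged over the spots of a probe, without spots marked as outliers. A probe entered a test where at least 1 of the groups compared had it well above background on both arrays. Tests were run with limma 3.58.1 in R 4.3.3, without a block, with Benjamini-Hochberg adjustment over all probes. Probes were named by RefSeq accession, through a table of GRCm38.p6 genes. The array's annotation is on mm9 per the file headers, so no probe coordinates are given. The files used here hold no probe sequences.

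The labels' design text makes each set a pair of cultures, and deviations from the group means correlated at 0.744 across probes within a set. The ligand genes and all lists were chosen with earlier results of these data known. All 10 genes are named, and from each list of ligands, receptors, regulators and antigen presentation genes the 3 with the widest difference in each comparison among those well above background on all arrays, plus further members as examples chosen after their values were seen; 1 regulator that this rule names is not reported here. Python 3.11.15, pandas 2.3.3, scipy 1.17.1 and matplotlib 3.10.9 were also used.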

Additional observations from a re-analysis of the deposited data

How the results depend on the processing

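Between Cdh1 and control, 0 probes and 0 ligand probes were called by limma under each alternative: the authors' table, median centring, quantile normalization alone or after normexp, dim probes kept, probes required above background on every array, the last 24 rows removed, the set as a replicate block, and each array left out (0 to 0). With the replicate block, 2335 probes had an unadjusted p under 0.05 and the lowest adjusted p was 0.617; the block changed no call. The number of probes called between the sets, 5098, was 9028 with normexp, 2165 with the treatment as a block, 0 without the filter on dim probes and 0 to 409 with an array left out. The number of ligand probes called, 3, was 1 with the treatment as a block, 0 without the filter and 0 to 1 with an array left out. Of 310 values of single probes under the alternatives, 266 kept direction and call, 15 lost a call, 1 gained one and 28 turned sign, 25 of these with an array left out. The cause of these changes was not tested. With 1 array gone the groups hold unequal shares of the sets, so a set difference enters by construction.

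With an array left out, the Cdh1 difference ranged from -0.31 to 0.24 for Cd274, -0.89 to 1.01 for Cd276, -0.08 to 0.01 for Cd47, -0.33 to 0.32 for Lgals9 and -0.32 to 0.05 for Tnfrsf14. It ranged from -0.30 to 0.04 and -0.37 to 0.10 for the probes of Pvr, from -0.13 to 0.03 for the brighter one of Nectin2, and from -0.13 to 0.03, -0.04 to 0.10 and -0.17 to 0.30 for those of Nectin3. That of Ulbp1 stayed between 0.92 and 1.18. The set difference ranged from -0.39 to 0.03 for the dimmer Pvr probe, -0.15 to 0.04 for the dimmer Nectin2 probe, -0.28 to 0.24 for the dimmest Nectin3 probe and -0.67 to 0.59 for Ulbp1. Otherwise the sign turned for the second Nectin3 probe with Cdh1 under median centring (-0.01), and between the sets with normexp for the dimmest Nectin3 probe (0.01) and Ulbp1 (0.05). The fits with 1 array in a group assume that it varies like the others. Without the last 24 rows Cd276 has no value.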
